A study of Homo sapiens with 12 samples.

Results

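Peak intervals of N6-methyladenosine, or m6A, the most frequent internal modification of mRNA, were examined on 7 genes for chaperones of the cytosol in H460, a human cell line from large cell lung cancer. The genes were HSPA1A, HSPA1B, HSPA8, HSP90AA1, HSP90AB1, HSPH1 and DNAJB1. Their intervals were those with 1 bp or more inside the span of the gene in hg19, on the gene's strand. This gave 27 of the 53502 intervals in 6 deposited peak lists, and 6 of the 7 genes had at least 1. The matching used position and strand alone, but the genes were chosen with earlier results of these data known.

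The series used MeRIP-seq, in which an antibody against m6A pulls down RNA fragments that are then sequenced next to an input library. Its 12 libraries are 3 inputs and 3 immunoprecipitates (IPs) of wild-type H460 cells without treatment, and 3 inputs and 3 IPs of wild-type H460 cells given 100 nM rapamycin, an mTORC1 inhibitor, for 24 h to induce autophagy. The labels do not say whether the replicates were separate cultures. The 6 lists carry the letters A to F here. By the record each belongs to a sample of untreated cells, 3 of them (A, C, E) to inputs and 3 (B, D, F) to IPs. By their deposited names, only A, B and C are con, and D, E and F are rapamycin. The treatment behind each list was therefore taken as unknown, no list was compared with another as an arm, and no test over lists was made. Each value is 1 value per list without replicates. The depth is unknown, because the lists hold no read counts, and the lists differed in length from 4530 intervals (E) to 14908 (B). Markers of the cell line were not examined, as the lists carry no gene names.

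These chaperones bind unfolded or partly folded proteins. HSP70 proteins (HSPA1A, HSPA1B and HSPA8) clamp exposed stretches of a client in a cycle driven by ATP, which J-domain proteins such as DNAJB1 start and nucleotide exchange factors such as HSPH1 reset. HSP90 proteins (HSP90AA1 and HSP90AB1) receive clients such as kinases and steroid receptors at a later stage of folding. HSPA1A, HSPA1B and DNAJB1 are strongly induced by heat and proteotoxic stress, whereas HSPA8 and HSP90AB1 are abundant in unstressed cells. Heat shock factor 1 drives the induction through heat shock elements, which are inverted repeats of the letters GAA. The mRNA of inducible HSP70 is also a well-known case of stress-dependent m6A in a 5′ untranslated region.

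Matches to the inverted repeat of heat shock elements are shown, because these elements are the regulatory sequence by which the genes are usually grouped. Whether a match acts as a heat shock element was not tested. All 7 genes were found in the RefSeq promoter table (GRCh38.p14), with 12 start sites between them. The 250 bases before each start were searched for GAANNTTC and TTCNNGAA. Each of these motifs reads the same on both strands, and matches of the 2 motifs may overlap. At least 1 match was found in 6 of the 12 windows, against 11.6% of all 35116 promoter windows. These 6 belonged to 6 different genes, and HSPH1 had none. At least 2 matches were found in 4 of the 12 windows (1 each of HSPA8, HSP90AA1, HSP90AB1 and DNAJB1), against 1.32% of all windows, with overlapping matches counted separately. As the genes were chosen as heat shock chaperones, shares above the background are no finding about them. Some windows are also alternative starts of 1 gene. For each gene, the matches nearest the start are given 5′ to 3′ on the gene's strand, with the defined letters of each match in capitals. Their positions are in GRCh38.p14 and were not compared with the hg19 intervals.
HSPA1A, chr6:31815425-31815456, plus strand: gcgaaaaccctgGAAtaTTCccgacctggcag
HSPA1B, chr6:31827621-31827652, plus strand: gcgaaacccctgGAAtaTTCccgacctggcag
HSPA8, chr11:123062167-123062203, minus strand: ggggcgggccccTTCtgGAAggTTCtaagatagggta
HSP90AA1, chr14:102087093-102087144, minus strand: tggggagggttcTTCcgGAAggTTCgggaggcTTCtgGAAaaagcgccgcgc
HSP90AB1, chr6:44247819-44247855, plus strand: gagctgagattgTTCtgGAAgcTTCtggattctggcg
DNAJB1, chr19:14518425-14518486, minus strand: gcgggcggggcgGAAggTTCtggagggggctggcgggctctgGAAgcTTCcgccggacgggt

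The 7 genes differed widely in their m6A intervals. HSPA1A and HSPA1B had an interval over nearly the whole gene in all 6 lists, HSP90AA1 had one at its 3′ end in 5 lists, and DNAJB1 had one at its 3′ end in 4. HSPH1 had intervals in 2 lists, HSP90AB1 in 1 and HSPA8 in none. The intervals joined into 8 regions over lists. Of these, 2 were held by all 6 lists, against 8.30% of the 20742 regions of the whole series. Another 2 of the 8 (25.0%) were held by only 1 list, against 36.9% of all regions. List A held 8 intervals in 6 of the genes, and B and C held 4 each in 4 genes. List D held 5 in 4 genes, and E and F held 3 each in 3. The counts did not rise steadily with list length: B, with 14908 intervals in all, held 4, and D, with 4837, held 5. A dependence on length was not tested. As a share of its own list, D stood highest at 0.103%. The share was 0.0664% in A, 0.0662% in E and 0.0612% in F, and lower in C (0.0326%) and B (0.0268%). Each share rests on 3 to 8 intervals.

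**Figure D1:**
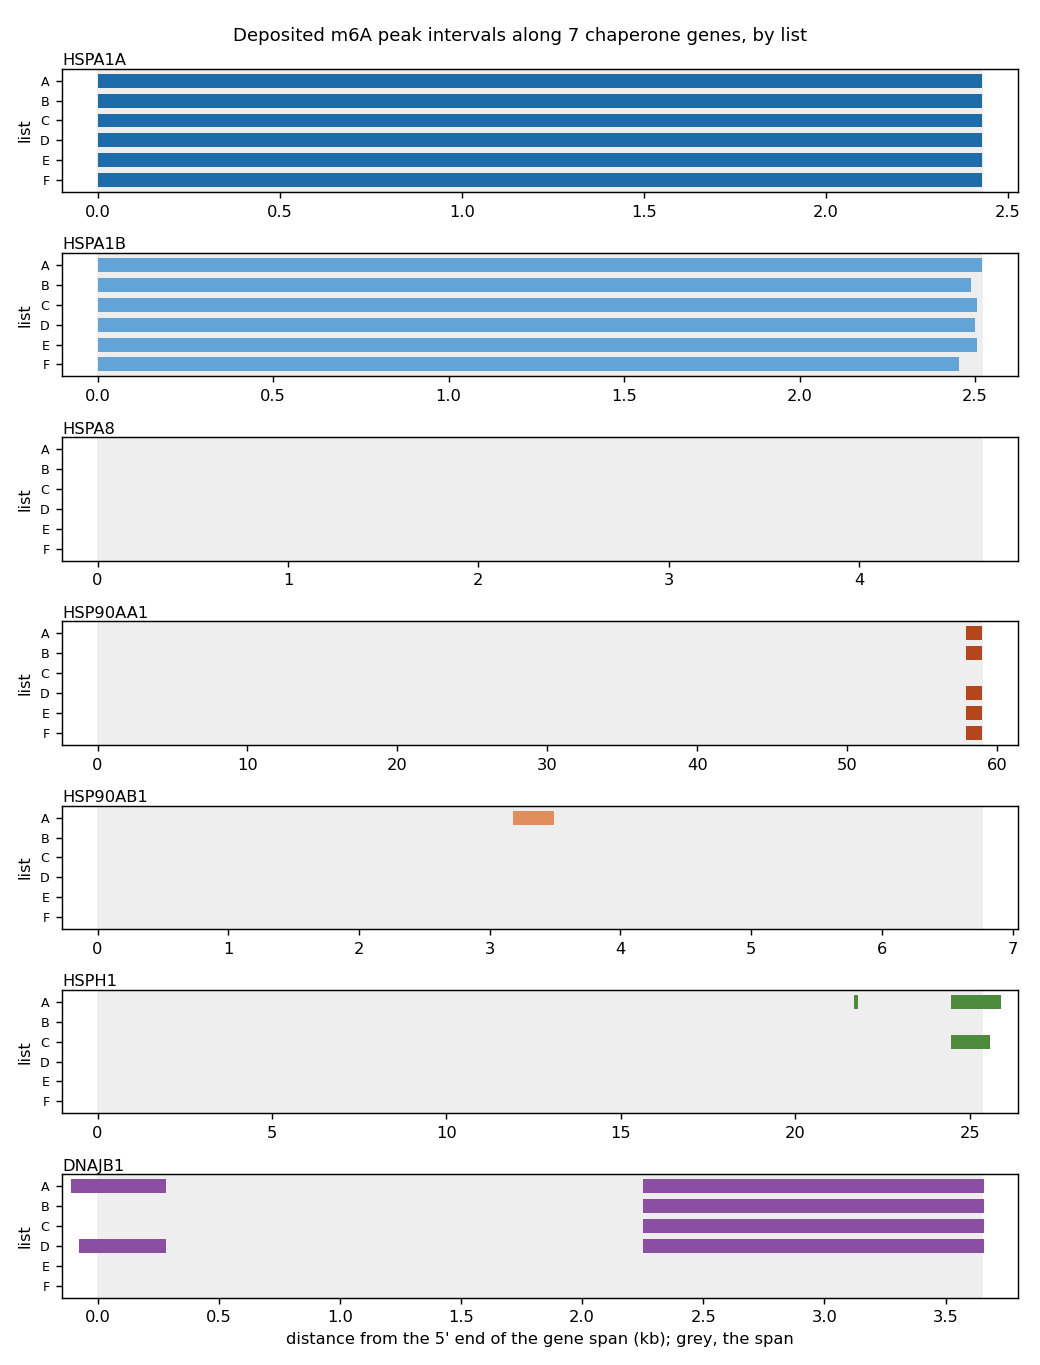
Intervals of the 6 lists along each gene, as distance in kb from the 5′ end of the gene's span (grey), 1 row per list; the scale differs between genes. In all 6 lists HSPA1A is filled from end to end and HSPA1B from its first base to at least 97.4% of its length, HSPA8 is empty, and the intervals of HSP90AA1 lie at the 3′ end alone.

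HSPA1A and HSPA1B encode the stress-inducible HSP70 proteins, and both genes lack introns, so span and transcript coincide. The HSPA1A span lies on chromosome 6 from 31783291 to 31785719 on the plus strand and is 2429 bp long. In lists A, B, C, D, E and F alike, 1 interval ran from its first to its last base, covering 100% of the span. An interval that fills the transcript does not place the mark in the 5′ untranslated region, the coding sequence or the 3′ untranslated region. HSPA1A had a score of 3100 in A, B, C, E and F and of 2212.68 in D. The score is the authors' own value per peak, whose scale the sources do not state, and many intervals stand at 3100. It is used to rank intervals within a list and does not compare lists. As a percentile of its own list, with ties given their average rank, HSPA1A stood at 98.0 (A), 93.9 (B), 94.8 (C), 97.1 (D), 99.2 (E) and 99.4 (F). In E only 3 of 4530 intervals scored higher and 67 had the same score, whereas in B 71 scored higher and 1680 were tied with it. The percentile of a score of 3100 is thus set largely by how many other intervals of the list stand there.

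HSPA1B lies on the same chromosome and strand from 31795512 to 31798031, a span of 2520 bp. Its interval began at the first base of the span in each list and differed only in where it ended. It reached 31798031 in A, 31798000 in B, 31798015 in both C and E, 31798010 in D and 31797966 in F. It covered 100% of the span in A and 97.4% in F, and the other lists lay between. HSPA1B had a score of 3100 in A, B and C, and of 1427.23 (D), 2347.38 (E) and 2161.11 (F) in the others. In A, B and C both genes were tied at 3100, where many scores pile up, so a difference between them may not show. In D, E and F, HSPA1A scored above HSPA1B by 785.45, 752.62 and 938.89, respectively. HSPA1A itself stood at 3100 in E and F. As the scale of the score is unstated, these differences do not compare lists. The score percentiles of HSPA1B ran from 93.9 (B) to 98.0 (F).

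HSPA1A and HSPA1B are near-identical copies, and reads from one can be placed on the other. The sources do not state how the authors treated such reads, so the intervals and scores of this pair are uncertain as separate values. Likeness extended to the promoters. An alignment of the 300-base RefSeq windows, 250 bases before the start and 50 after it, had 277 identical positions of 301 (92.0%), with 22 mismatches and 2 gaps. Counted as 1 gene, the pair makes 1 region held by all lists instead of 2.

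HSPA8 encodes the constitutive HSP70 of the cytosol, which also carries out clathrin uncoating and the recognition step of chaperone-mediated autophagy. Its span lies on chromosome 11 from 122928200 to 122932844 on the minus strand (4645 bp). No interval lay on it in any of the 6 lists, on either strand. Without read counts, it cannot be told whether the transcript lacked the mark or fell below what the peak calling kept, whose lowest score lay between 70 and 70.08 in each list.

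HSP90AA1 encodes the stress-inducible HSP90 alpha, and its span is the longest of the group, 59012 bp on chromosome 14 from 102547075 to 102606086 on the minus strand. The 1 interval found was identical in A, B, D, E and F. It ran from 102547075 to 102548158, 1084 bp wide, and formed the last 1084 bp of the gene, or 1.84% of the span with introns. The HSP90AA1 score was 3100 in each of these 5 lists, at percentiles of 98.0 (A), 93.9 (B), 99.25 (D), 99.19 (E) and 99.4 (F). List C had no interval there, although HSPA1A, HSPA1B and DNAJB1 all stood at 3100 in that list. Without list C, the regions held by all lists rise from 2 to 3.

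HSP90AB1 encodes HSP90 beta, the constitutive partner. Its span lies on chromosome 6 from 44214848 to 44221614 on the plus strand (6767 bp). List A alone had an interval, from 44218028 to 44218336. It was 309 bp wide and began 3181 bases into the span. The HSP90AB1 score was 1009.42, at percentile 84.2 of list A, where 1906 intervals scored higher. The strongly scored 3′ interval of HSP90AA1 thus had no counterpart at the 3′ end of HSP90AB1 in any list.

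DNAJB1, the J-domain partner of inducible HSP70, lies on chromosome 19 from 14625582 to 14629232 on the minus strand (3651 bp). Its main interval ran from 14625576 to 14626982 in A, B, C and D, with the same ends in each. It was 1407 bp wide, covered 38.4% of the span and passed the 3′ end of the span by 6 bp. The score of this DNAJB1 interval was 1226.95 (A), 2429.01 (B), 3100 (C) and 467.03 (D), at percentiles of 87.3, 85.4, 94.8 and 77.5. Lists E and F had no interval on DNAJB1.

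A second DNAJB1 interval, at the 5′ end, occurred in A and D. In both it stopped 282 bases into the span, at 14628951. It began 110 bp before the span in A (at 14629342) and 78 bp before it in D (at 14629310). This 5′ interval scored 305.22 in A, at percentile 57.0, and 179.45 in D, at percentile 47.4, near the middle of each list. It was the only interval of the group that marked a 5′ end separately from the rest of a transcript. DNAJB1 was also the only gene of the group with intervals at both ends in 1 list.

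HSPH1, a large HSP70 relative that acts as nucleotide exchange factor, lies on chromosome 13 from 31710763 to 31736117 on the minus strand (25355 bp). Lists A and C had an interval over its 3′ end. Both began at the same base of the gene, 31711661 in genome terms, 24457 bases into the span. In A it ran on to 31710234, 529 bp past the 3′ end of the span, and in C to 31710544, 219 bp past it. List A had a second HSPH1 interval of 126 bp, from 31714321 to 31714446. The HSPH1 scores were the lowest of the group. The 3′ interval scored 74.25 in A (percentile 2.90) and 121.53 in C (percentile 19.6), and the short one scored 80.28 (percentile 6.56).

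Across the group, scores were high for most intervals and low for HSPH1. Of the member intervals, 14 of 27 stood at 3100. By list these were 3 of 8 in A, against 3.74% of all intervals at or above 3100, 3 of 4 in B against 11.8%, and 3 of 4 in C against 10.0%. They were 1 of 5 in D against 1.47%, 2 of 3 in E against 1.57% and 2 of 3 in F against 1.10%. The shares of the members lay above the background of the list in each case, but they rest on 4 genes, 2 of them near-identical, seen again in list after list. The median score percentile of member intervals was 85.7 for A, 93.9 for B, 94.8 for C, 94.5 for D, 99.2 for E and 99.4 for F, where 50 is the middle of all intervals of a list. The medians of E and F each rest on 3 intervals.

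**Figure D2:**
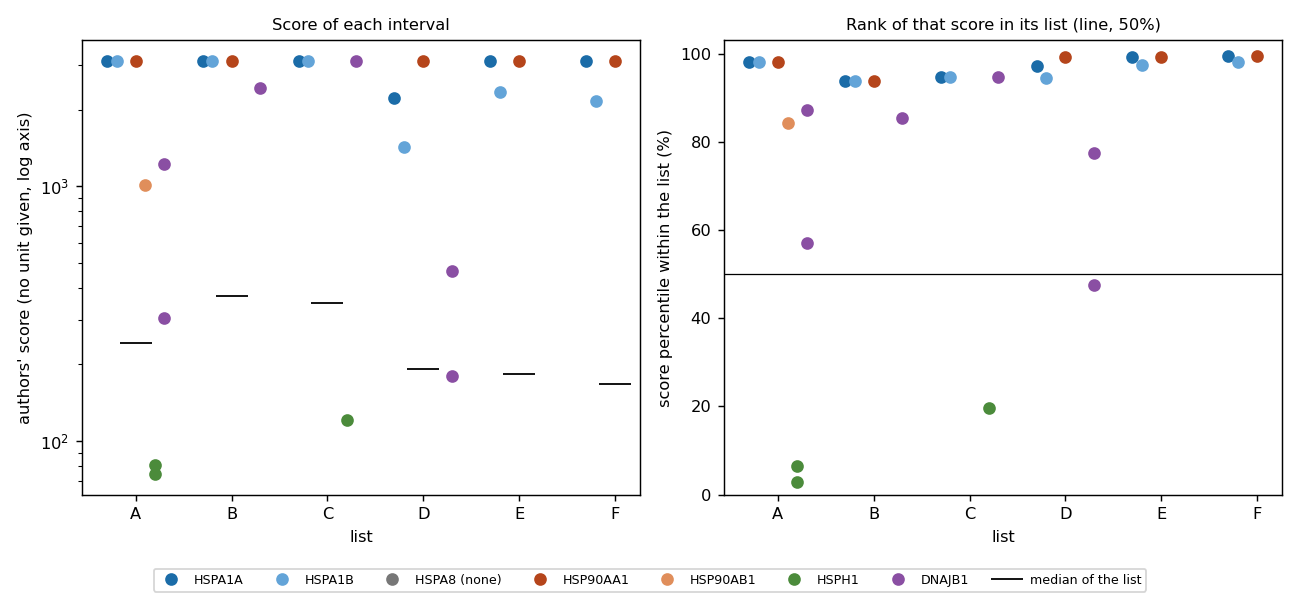
Left, the authors' score of each chaperone interval on a log axis, by list, with the median of the list as a bar; right, the percentile of that score within its list, with a line at 50. HSPA1A, HSPA1B and HSP90AA1 sit at or above percentile 93.9 wherever they occur, DNAJB1 runs from 47.4 to 94.8, and HSPH1 lies below 20 in A and C.

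Of the 27 intervals, 23 were wider than the median of their list. These were the intervals of HSPA1A, HSPA1B and HSP90AA1 and the wider ones of DNAJB1 and HSPH1. Many are the same region seen again in list after list, and HSPA1A and HSPA1B are near-identical, so the 23 are not independent. HSPA1A, at 2429 bp, was matched or exceeded in width by 5.70% of the intervals in B and 9.97% of those in D, with the other lists between. The HSP90AA1 interval of 1084 bp was matched or exceeded by 25.4% of intervals in B and 39.1% in D. Median widths of all intervals ran from 452.5 bp in A to 829.5 bp in E. The intervals narrower than the median of their list were the 5′ interval of DNAJB1 in A and D (392 and 360 bp), the one of HSP90AB1 (309 bp) and the short one of HSPH1 (126 bp).

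**Figure D3:**
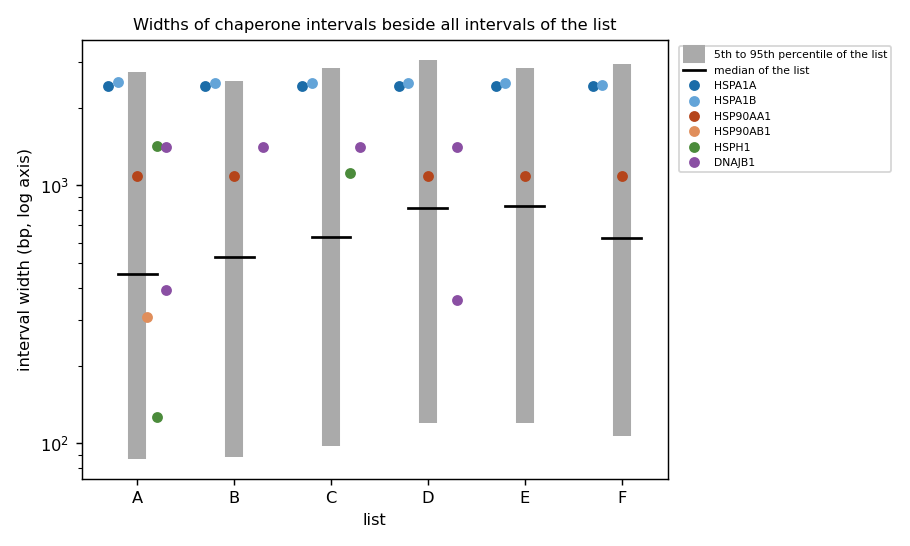
Width in bp of each chaperone interval (log axis), by list, beside the median of all intervals of the list (black line) and their 5th to 95th percentile (grey bar). HSPA1A and HSPA1B lie between 2429 and 2520 bp in all 6 lists, and 4 intervals lie below the median of their list.

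Ends were often identical between lists. Of the 48 pairs of overlapping member intervals from different lists, 32 (66.7%) had both ends equal to the base, against 61.8% of all 69677 such pairs, which is close to the background. All 48 shared at least 1 end, against 95.8% of all pairs. Pairs from 1 gene share their transcript and are not replicates. The pairs with 1 unequal end belonged to HSPA1B at its 3′ side, to HSPH1 at its 3′ side and to DNAJB1 at its 5′ side.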

How the data were processed

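The data were 6 peak lists of 6 columns without header. The deposited score gives each peak 1 value on a scale that no source states. HISAT2 2.0.4 and hg19 are named in the submitters' processing notes. Peaks carry names in the default style of MACS, per the file contents. The caller's version and settings and the IP and input behind a list were not stated in the sources.

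Starts were converted to 1-based positions. Intervals were matched to the 7 gene spans (hg19) by at least 1 shared bp on the same strand, ranked by score within their list, and joined over lists where they overlapped. All 7 genes are named. The members and lists were chosen with earlier results of these data known. Exons, interval sequences and a wider list of chaperone and co-chaperone genes were not analysed, as no hg19 genome or annotation was used. Alternatives were strand, minimum score, list length, required overlap, joining of gaps, tie handling, a minimum width, a tolerance on ends and leaving out each list.

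Python 3.11.15, pandas 2.3.3, numpy 2.4.6, scipy 1.17.1, Biopython 1.88 and matplotlib 3.10.9 were used. The code was tested on simulated data, returning 7 of 7 known values, and its member counts equalled those of bedtools 2.31.1 for 6 of 6 lists.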

Additional observations from a re-analysis of the deposited data

How the results depend on the processing

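A count was taken as moved when it changed by over 1.5 times, and a percentage when it left its 95% Clopper-Pearson interval. Of 78 recomputed summary values, 76 stayed within these limits, but many of them could hardly leave the limits. Ignoring strand added no interval. Leaving out a list cannot lower the number of genes with an interval in every list, and a rise from 2 to 3 is not over 1.5 times. Counting HSPA1A and HSPA1B as 1 takes just 1 gene from each list. The tally is therefore no measure of robustness. Median score percentiles had no limit that could be failed and are not counted among the 78. Their largest move was 5.64 points, in list B with tied scores at their lowest rank (93.9 to 88.2). With every list cut to its 4530 highest scores, the intervals in list A fell from 8 to 5, which removes weak intervals by construction. With HSPA1A and HSPA1B counted as 1, chosen after seeing the data, the regions held by all lists became 1 instead of 2. Leaving out each list in turn gave 2 to 3 such regions and 2 to 3 genes with an interval in every list, the 3 arising without list C. The covered length of the genes stayed within 1.5 times in 122 of 126 recomputations. The 4 exceptions were HSPH1 in A and C, which lost all coverage both at equal list length and when only scores from the pooled median (260.4) upwards were kept. Pairs with both ends equal rose from 66.7% to 72.9% with a tolerance of 10 bp, a setting that can only raise the value. The Clopper-Pearson interval treats these pairs as independent, which they are not. Staying inside it therefore does not show that the percentage is stable. No paired analysis was possible because neither treatment nor library is settled for any list. Depth is unknown, so a gene without an interval was not shown to lack m6A.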

Other observations

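Intervals lay near several of the genes without touching their spans, within the 20 kb searched on each side. The closest on the strand of HSPA8 lay upstream of it, from 122943033 to 122944482 in A, B and C and from 122943304 to 122944482 in E. It lay 10188 bp from the 5′ end of HSPA8 in A, B and C and 10459 bp in E, with scores of 175.62 in A, 485.22 in B, 1830.44 in C and 109.52 in E. Upstream of DNAJB1 on its strand, list A had an interval from 14640123 to 14640582 with a score of 71.57, and list B had one from 14640302 to 14640582 with a score of 215.84. On the strand opposite to HSPA1A, list B had an interval 4243 bp upstream with a score of 82.03 and list C had one 3528 bp upstream with a score of 209.79. On the strand opposite to HSP90AB1, an interval 4288 bp downstream scored 109.82 in B, 92.27 in C and 182.84 in D. RefSeq (GRCh38.p14) lists HSPA1L, another HSP70 gene, next to HSPA1A. These intervals were not assigned to genes.

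The letters GGACT, a common form of the m6A consensus, were searched on the sense strand of the 50 transcribed bases after each RefSeq start. They occurred in 2 of the 12 windows of the group, 1 of the 3 of HSP90AB1 and the 1 of HSPH1, and in 4.90% of all 35116 windows. Neither gene had an interval at its 5′ end in any list. The genes whose intervals reached the 5′ end, HSPA1A and HSPA1B in all lists and DNAJB1 in A and D, had no GGACT in these windows. Most of all windows lack it as well, so its absence does not set these genes apart. A search of 50 bases for 1 form of the consensus cannot show whether motif and intervals go together. The windows are in GRCh38.p14 and were not placed within the hg19 intervals, whose sequence was not read.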
